A study of Mus musculus with 30 samples.

Results

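The sites described here are the regions of accessible chromatin that changed in primary mouse tail-tendon fibroblasts treated with Y27632, an inhibitor of the kinases Rock1 and Rock2, against the same kind of cells given the solvent DMSO. They are all 207 sites of the authors' deposited table for that comparison, which lists sites at a false discovery rate (FDR) of at most 0.05, out of about 61804 sites tested, or 0.335%. The 5 site tables of the series together list 16367 sites. Each group had 3 ATAC libraries, from wildtype cells in medium with 0.1% serum, and the treated cells received Y27632 at 30 µM. The same treatments were given to 3 RNA libraries each. Further groups received the myosin II inhibitor blebbistatin at 10 µM, and 12 more genomic DNA libraries in 4 groups combined blebbistatin with doxycycline at 10 ng/mL. The labels do not say what doxycycline induces, how long the cells were treated, or whether the libraries of a group came from separate animals or cultures, so the p-values below measure the spread between these libraries. The site table holds 1 mean per group and no value per library, so every site value below is the authors', without an SD.

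ATAC-seq reads out where a transposase can reach the DNA, and most regions that open and close with a stimulus are enhancers some distance from a gene's start. Rock1 and Rock2 phosphorylate the myosin light chain and, through LIM kinase and cofilin, keep actin in filaments, so inhibiting them relaxes stress fibres. Actin tension is known to act on transcription along 2 routes: the coactivators Yap and Taz, which bind DNA through TEAD proteins, and the MRTF coactivators of serum response factor (SRF), which serve genes of the contractile apparatus.

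Most listed sites lost accessibility with Y27632. In the authors' deposited table, 176 of the 207 sites were lower, 85%, and 31 were higher, 15%, which is 0.285% and 0.0502% of the sites tested. The log2 folds of the lower sites ran from -2.12 to -1.11 with a median of -1.37, and those of the higher sites from 1.11 to 1.67 with a median of 1.31. No listed site changed by less than 2.16-fold. At an FDR of at most 0.01 the table has 67 lower and 11 higher sites. The median log2 group mean of the lower sites was 6.73 in DMSO and 5.35 with Y27632, and that of the higher sites 5.38 in DMSO and 6.58 with Y27632.

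**Figure D1:**
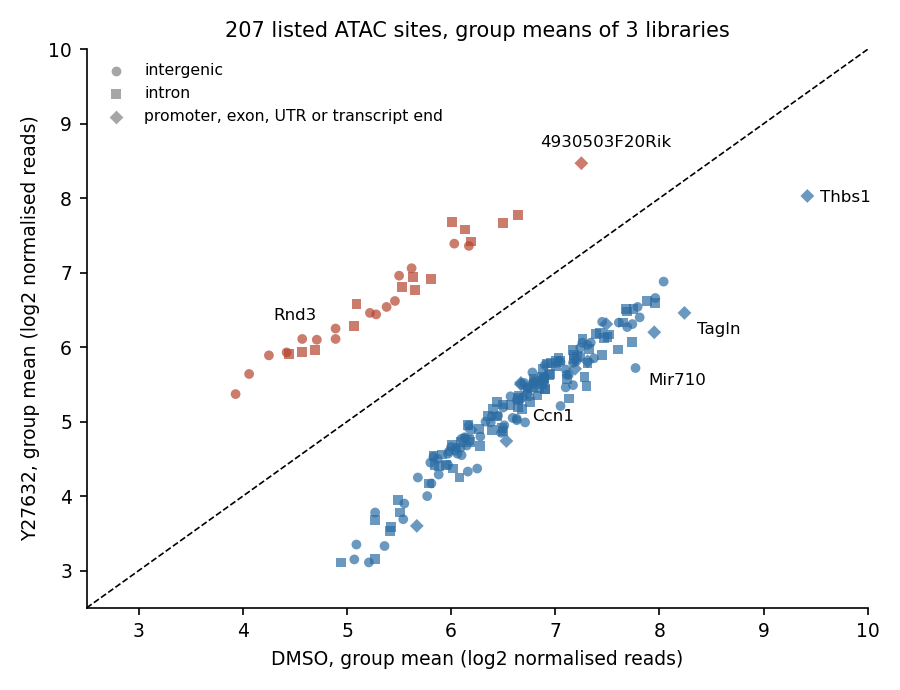
Group mean of each of the 207 listed sites in Y27632 (vertical axis) against DMSO (horizontal axis), both in log2 normalised reads as the authors deposited them. Points are sites, blue where lower and red where higher with Y27632, the symbol gives the annotation, and the dashed line marks equal levels; the 176 lower sites lie below it and reach up to 9.42 in DMSO at a site near Thbs1.

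The sites were distal. In the authors' annotation 100 of the 207 sites were intergenic and 95 lay in introns, 8 at a transcript end, 2 in a 3′ untranslated region, 1 in an exon and 1 at a promoter. Of the 95 intronic sites, 67 were in an intron of the gene to which the site is linked and 28 in an intron of another gene. The median distance to the nearest transcription start was 38.0 kb for the lower and 77.7 kb for the higher sites. Within 10 kb of a start lay 35 of the 176 lower and 3 of the 31 higher sites, and 3 sites, all lower, were within 1 kb. The sites were 84 to 963 bp wide with a median of 293 bp. Repeats were annotated at 34 of the 176 lower sites, 13 in LTR and 13 in LINE elements, and at 2 of the 31 higher sites.

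**Figure D2:**
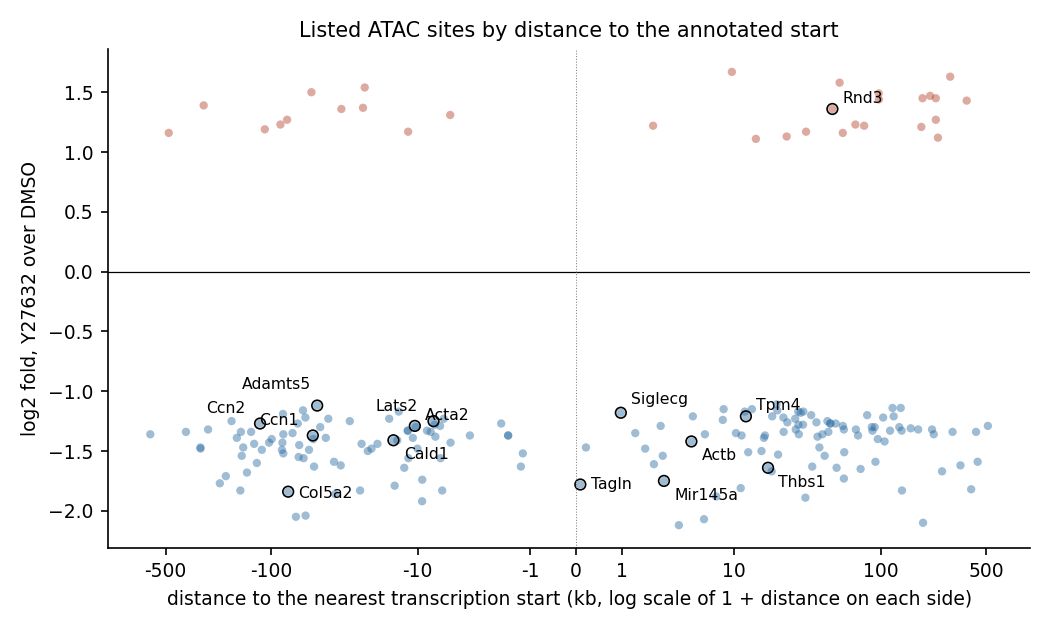
Log2 fold of each site (vertical axis, Y27632 over DMSO) against its distance to the nearest annotated transcription start in kb (horizontal axis, log scale of 1 + distance on each side, negative upstream). Points are sites, circled where named; the promoter site of Tagln is the nearest to a start, at 0.068 kb.

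Where the blebbistatin ATAC table covers the same sites, it also gives the positions at which the authors' search found the TEAD motif, and so shows the letters in the sites that Y27632 closed. Such matches were listed at 102 of the 143 shared sites that were lower with both inhibitors, 71.3%, and at 0 of the 6 shared sites that were higher. Of all 970 sites listed with blebbistatin, 62.2% had a match, and of the 821 that did not overlap a Y27632 site 61.0%. The shared lower sites were also wider, with a median of 306 bp against 248 bp for those 821 sites, and the part of width in the shares was not tested. Among the 151 matches at the shared sites, 93 held the 6-letter core of the TEAD motif, GGAATG or its reverse complement CATTCC, 61.6%, against 64.0% of all 837 matches in that table. All matches listed at the site with the smallest p-value and at shared sites nearest to a gene of the lists described below (contractile, YAP/TAZ and matrix genes) are printed here as 10 letters of the deposited table on the plus strand, 5′ to 3′, with the core in capitals where it is present.
Site 1 by p-value, nearest Mir710, first match: aGGAATGtat
The same site, both other matches: aggaattcat
Col5a2 site, first match: tcaCATTCCt
Col5a2 site, next match: tgaCATTCCt
Adamts6 site: aagaatgcag
Thbs1 site of 963 bp: gtgCATTCCt
Ccn1 site, first match: tGGAATGcag
Ccn1 site, next match: aggaatttga
Ccn2 site, first match: aggaattcca
Ccn2 site, next match: ccaaattcct
Asap1 site: aGGAATGcaa
Acta2 site: ccaaattcca
The core is present at the sites of Mir710, Col5a2, Thbs1, Ccn1 and Asap1. The matches at the Ccn2, Acta2 and Adamts6 sites differ from it. Shared sites of list genes without any listed match were the Tpm4 site and the Thbs1 site of 123 bp. The median fold with Y27632 was -1.37 over the 102 shared lower sites with a match and -1.36 over the 41 without.

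The largest decreases were not at genes of the contractile apparatus, and several were at sites of low level. Among sites at an FDR under 0.01 in the authors' deposited table, the one with the largest fold, at chr16:11199486-11199590 in intron 4 of 8 of Rsl1d1, fell from 5.27 to 3.16 (log2 group means, fold -2.12, FDR 0.00275). The next were near 7630403G23Rik at -2.10, in the 3′ untranslated region of Sap18 near Mir3077 at -2.07, near Mir710 at -2.05, near Grm8 at -2.04, near Gm19299 at -1.89, in an intron of Scnn1g at -1.88 and near Col5a2 at -1.84. The Mir710 site, at chr8:64582821-64583360 and 68.7 kb upstream of its start, had the smallest p-value of the table, with a change from 7.77 to 5.72 and an FDR of 1.11e-05. It was followed by the Col5a2 site at chr1:45580408-45580836, 77.3 kb upstream of this fibrillar collagen gene, which fell from 7.05 to 5.21 with an FDR of 3.43e-05. The RNA of Rsl1d1 was 1950, 1932 and 2136 normalised counts in DMSO and 2180, 2073 and 2120 with Y27632, so the groups overlapped, with a log2 change of 0.08 (limma adjusted p 0.154), which passed when DMSO replicate 3 was left out (0.13, limma adjusted p 0.0254).

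Among contractile genes, the known targets of MRTF and SRF, Tagln, Actb, Tpm4 and Acta2 had lower sites. They are 4 of 21 genes in a list of actin and SRF targets, which like all gene lists here was chosen with earlier results of these data known. All 4 sites were lower, as were 85% of all listed sites. For comparison, 191 of all 35972 genes with RNA values, or 0.531%, were the nearest gene of a listed site, and of the 14833 genes tested in RNA 127, or 0.856%. The single promoter site of the table was that of Tagln, which encodes the actin-binding protein transgelin. In the authors' deposited table this site, at chr9:45935759-45936221, fell from 8.24 to 6.46 (fold -1.78, FDR 0.000805). Its mean level of 7.61 was below those of sites near Thbs1, at 8.88, and 4930503F20Rik, at 7.99, and just above those near Gm5627, at 7.58, and 3110009F21Rik, at 7.45, and these were the 5 highest of the table. An intergenic site 4.75 kb past the start of Actb, which encodes cytoplasmic actin, fell from 7.69 to 6.27 (fold -1.42), and a site in the last intron of Tpm4, a tropomyosin, from 7.69 to 6.48 (fold -1.21). The site nearest Acta2, the smooth muscle actin gene that marks contractile fibroblasts, lay 10.5 kb upstream at chr19:34265634-34266106 and fell from 7.61 to 6.33 (fold -1.29).

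A few other sites are described here that were chosen after their values were seen. Actn4, which encodes an actin-crosslinking actinin, had a pair of sites in its first intron with log2 folds of -1.37 and -1.35 in the authors' deposited table. A site 14.9 kb upstream of Cald1, the caldesmon gene, had a fold of -1.41. At chr18:61644857-61645349, at the transcript end of Carmn and 2.79 kb past the start of Mir145a, a microRNA known from smooth muscle, the level fell from 7.95 to 6.20 (fold -1.75, FDR 0.000373), and only 4 sites of the table had a smaller p-value.

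The RNA of the contractile genes with a lower site fell as well where it could be tested. RNA was measured in separate libraries of 23375386 to 37061737 reads in genes, and limma called 5328 of the 14833 tested genes, or 35.9%, at the limit of 0.05 for the adjusted p, with 17.8% lower and 18.1% higher. Acta2 had 4208, 4163 and 4491 normalised counts in DMSO and 2488, 2495 and 2531 with Y27632. The groups did not overlap, and the log2 change was -0.77 (standard error 0.036, limma adjusted p 6.13e-09). Tpm4 had 24384, 25693 and 26818 in DMSO and 18219, 17096 and 17459 with Y27632, a log2 change of -0.54 (limma adjusted p 2.51e-07). Actb had 30793, 30054 and 31029 in DMSO and 22197, 21320 and 23169 with Y27632, a log2 change of -0.46 (limma adjusted p 3.91e-07). For these genes too every Y27632 library was below every DMSO library.

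Tagln could not be tested, because its mean was under the minimum of 10 normalised counts. It was at 8.26, 11.5 and 14.3 normalised counts in DMSO and at 1.50, 1.77 and 2.10 with Y27632, where each library held 2 reads. Its promoter site was thus among the listed sites of highest level while few RNA reads were assigned to the gene. How reads of overlapping genes were assigned is not given in the sources used here. Of the 20 tested genes of the actin and SRF list 18 were called lower and 0 higher, with a median log2 change of -0.51, against a median of 0.00 over all 14833 genes, and 17 of the 21 listed genes had no site. Myl9, the regulatory myosin light chain, is among those without a site, and its RNA changed by -1.50 (limma adjusted p 3.33e-09). Actn4 changed by -0.43 and Cald1 by -0.28 (limma adjusted p 1.22e-07 and 1.05e-05). Of the kinases that Y27632 inhibits, Rock2 fell from 23027 ± 486 to 17844 ± 316 normalised counts (SD, n = 3), with a log2 change of -0.37 (limma adjusted p 9.04e-07), and Rock1 had a change of -0.02 (limma adjusted p 0.680); neither had a listed site.

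Some YAP/TAZ targets had lower sites, with a small change of RNA. For comparison, 0.856% of the genes tested in RNA were linked to a site, and 85% of all listed sites were lower. Of the 25 YAP/TAZ targets in the list, all tested in RNA, 5 had 7 sites, all lower. Thbs1, which encodes the matrix glycoprotein thrombospondin 1, had 3 of them within 2 kb of each other, at and just past its transcript end. In the authors' deposited table the widest, at chr2:118127640-118128603, had the highest level of all listed sites and fell from 9.42 to 8.03 (fold -1.39, FDR 0.0321), and its neighbours had folds of -1.64 and -1.50. Levels were not divided by width here, and at 963 bp this site was also the widest listed. The site nearest Ccn1, a secreted matricellular protein and a standard Yap target, at chr3:145702797-145703054 and 52.9 kb upstream, fell from 6.66 to 5.29 (fold -1.37). The site nearest Ccn2, the connective tissue growth factor gene, lay 119 kb upstream in an intron of Gm15270 and fell from 6.35 to 5.08 (fold -1.27). Lats2, the kinase that restrains Yap, had a site 7.66 kb upstream with a fold of -1.25, and Asap1, a regulator of focal adhesions, had a site in intron 2 of 30 with a fold of -1.17.

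Thbs1 RNA was at 256695, 275170 and 261401 normalised counts in DMSO and at 197070, 186957 and 215417 with Y27632. Every treated library was lower, with a log2 change of -0.41 (standard error 0.050, limma adjusted p 4.15e-05). Lats2 had 5649, 6052 and 6013 in DMSO and 4882, 4742 and 5136 with Y27632, a log2 change of -0.26 (limma adjusted p 0.000156). Ccn1 had 10290, 11098 and 11371 in DMSO and 9974, 9407 and 10548 with Y27632, so the groups overlapped. Its log2 change was -0.13 (limma adjusted p 0.0372), but leaving out 1 library ended the call in 4 of 6 cases: -0.12 (limma adjusted p 0.119) and -0.10 (0.116) with DMSO replicate 2 or 3 left out, and -0.13 (0.0709) and -0.09 (0.162) with Y27632 replicate 1 or 2 left out. Ccn2 was not called, with overlapping groups and a change of -0.11 (limma adjusted p 0.267), and neither was Asap1 at 0.02 (limma adjusted p 0.690). Over the 25 genes of the list 13 were called lower and 6 higher, with a median of -0.13.

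**Figure D3:**
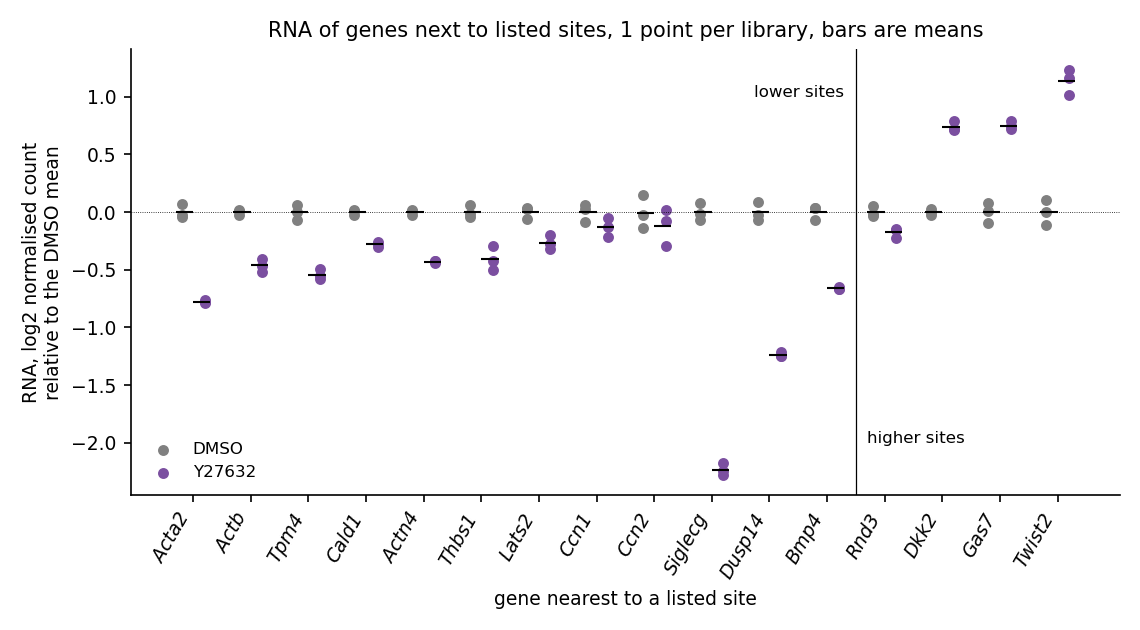
RNA of 16 genes next to listed sites as log2 normalised count relative to the DMSO mean (vertical axis), 1 point per library, grey for DMSO and purple for Y27632, with bars at the means; genes left of the line have lower sites and those right of it higher sites. The groups are apart for all but Ccn1 and Ccn2, and Rnd3 is the gene with a higher site and lower RNA.

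Of 30 matrix structure genes Col5a2 had a listed site, and of 24 matrix degradation genes the aggrecanase gene Adamts5 and its relative Adamts6 had 1 each, all lower. In the authors' deposited table the Adamts6 site, 255 kb from the start, had a fold of -1.67 and the Adamts5 site, 49.5 kb upstream, of -1.12. Col5a2 RNA had 258248, 263728 and 252617 normalised counts in DMSO and 223826, 229695 and 226047 with Y27632, a log2 change of -0.19 (limma adjusted p 0.00116). Adamts5 RNA fell further, by 0.56 on the log2 scale (limma adjusted p 6.20e-07), and Adamts6 was at 0.02 (limma adjusted p 0.852). Col28a1, a collagen gene outside the list, had the most sites of any gene, 4 in its introns 3 and 11 with folds of -1.67 to -1.32. Its RNA fell from 109 ± 18.8 to 62.5 ± 7.26 normalised counts (SD, n = 3), with a log2 change of -0.78 (limma adjusted p 0.00179). Sites within 10 kb of each other formed 10 groups with 21 sites, and in each of these groups all sites had the same direction. Since 85% of all listed sites were lower, a shared direction says little. The group at Atg16l2 spans 328 bp, and whether such neighbours are parts of the same open region was not tested.

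Genes of growth signalling had higher RNA. Of 20 immediate early factors, which growth signals switch on within minutes, 18 had higher and 0 lower RNA, with a median log2 change of 1.16, and of 13 feedback inhibitors of MAP kinase signalling 12 were higher and 0 lower, with a median of 1.05. Among them Nr4a1 rose from 356 ± 30.6 to 2556 ± 392 normalised counts and Errfi1 from 1077 ± 101 to 8586 ± 1679 (SD, n = 3; limma adjusted p 7.43e-10 and 1.76e-09). None of these 33 genes was the nearest gene of a listed site, and neither was any of 26 integrin and focal adhesion genes or 17 genes of the TGF-beta pathway. These counts depend on the choice of members, which was made with earlier results of these data known. Dusp14, a phosphatase of MAP kinases outside the list, had a lower site and an RNA change of -1.23 (limma adjusted p 8.33e-09). With 0.856% of tested genes linked to a site, lists of this size are too short for the lack of a site to say anything about them. Of 25 genes of Rock signalling and contractility 1 had a site, Rnd3, and 8 were called lower and 5 higher.

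Of the 31 sites that opened, the Rnd3 site was the single one at a gene of the lists. In the authors' deposited table the largest increase, at chr5:44975496-44976131 in intron 8 of 9 of 4930431F12Rik, went from 6.01 to 7.68 (fold 1.67, FDR 0.000373). It was followed by sites near Dleu7 at 1.63, Sucnr1, a succinate receptor, at 1.58, Gas7, a regulator of actin in cell outgrowth, at 1.54, Rtp1 at 1.50, Tbc1d1 at 1.49, Ldb2, a LIM domain cofactor, at 1.47 and Dkk2, a Wnt pathway antagonist, at 1.45. The Dkk2 site lies at chr3:132274853-132275224, 190 kb from the start, and went from 5.50 to 6.96 with an FDR of 0.000475. The Gas7 site, 23.6 kb upstream at chr11:67509365-67509505, went from 4.57 to 6.11. The site with the highest level among those that opened, 2.22 kb past the start of 4930503F20Rik, went from 7.25 to 8.47.

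RNA of the genes next to these sites mostly rose. Of the 28 genes with only higher sites 17 were tested, and limma called 13 higher and 3 lower, with a median log2 change of 0.53, against the 18.1% higher and 17.8% lower of all genes given above. Among the 13 is 4930431F12Rik, which passed the minimum only through its Y27632 libraries, so its call adds no support. Dkk2 had 6307, 6546 and 6436 normalised counts in DMSO and 10562, 10537 and 11120 with Y27632, a log2 change of 0.74 (limma adjusted p 4.10e-09). Gas7 had 4018, 3818 and 3567 in DMSO and 6249, 6555 and 6372 with Y27632, a log2 change of 0.75 (limma adjusted p 2.65e-08). Twist2, a transcription factor of mesenchymal cells with a site 87.1 kb upstream, had 483, 415 and 448 in DMSO and 907, 1056 and 1001 with Y27632, a log2 change of 1.14 (limma adjusted p 7.34e-08). All treated libraries of these 3 genes were above all DMSO libraries.

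Ldb2 rose by 0.81, Sned1, a matrix protein, by 0.61 and AI427809 by 0.53 on the log2 scale. At low counts, Clic5 rose by 1.50 (limma adjusted p 5.38e-05) from 22.1 ± 2.82 to 63.9 ± 5.93 normalised counts (SD, n = 3), and 4930431F12Rik passed the minimum only through its Y27632 libraries. Tbc1d1, with a pair of sites at 1.44 and 1.49 in intron 15 of 19, rose by 0.34 (limma adjusted p 6.16e-05). Marcks, an actin-binding membrane protein, and Nr3c1, the glucocorticoid receptor, rose by 0.22 each (limma adjusted p 0.000107 and 0.000695), with sites 478 and 186 kb from their starts. The exceptions were Zfp521, at -0.26, Lman1, at -0.09, and Rnd3, an atypical small GTPase that opposes Rock1. The Lman1 call (limma adjusted p 0.0397) held in 1 of the 6 fits that left out a library: the change was -0.08 (0.126) and -0.07 (0.120) with DMSO replicate 2 or 3 left out, and -0.10 (0.0633), -0.09 (0.0970) and -0.09 (0.100) with Y27632 replicate 1, 2 or 3 left out. The Rnd3 site, 47.7 kb from its start at chr2:51101350-51101539, opened from 4.89 to 6.25 in the authors' deposited table, while its RNA went from 4175, 4392 and 4134 to 3633, 3790 and 3815 normalised counts, a log2 change of -0.18 (limma adjusted p 0.00169).

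RNA of the genes next to closed sites fell more often than it rose. All 191 genes linked to a site matched the RNA table, and 127 passed the minimum. Of the 161 genes with only lower sites 108 were tested; limma called 53 lower and 12 higher, with a median log2 change of -0.15. As shares of the tested genes these are 49.1% and 11.1%, against 17.8% and 18.1% of all 14833 tested genes, whose median was 0.00. Both genes with sites of either direction, Wwox and A330102I10Rik, were not called. Of the 20 tested genes with lower sites within 10 kb of the start, 11 were lower in RNA and 2 higher. With lower sites over 10 to 50 kb away it was 25 and 5 of 45 genes, over 50 to 100 kb 11 and 3 of 21, and over 100 kb 8 and 2 of 24; a gene with sites in several of these classes counts in each. By annotation, 27 of 55 tested genes with lower intronic sites and 25 of 50 with lower intergenic sites were lower in RNA.

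Siglecg, a sialic acid receptor of lymphocytes, had the largest fall among the linked genes tested. Its site, in exon 4 of 12 at chr7:43409105-43409400 and 0.973 kb past the start, went from 7.49 to 6.31 in the authors' deposited table (fold -1.18). Its RNA had 313, 325 and 347 normalised counts in DMSO and 67.7, 72.6 and 69.2 with Y27632, a log2 change of -2.22 (standard error 0.098, limma adjusted p 5.00e-09). Dusp14, a phosphatase of MAP kinases, fell from 794 ± 42.6 to 337 ± 5.17 (SD, n = 3), by 1.23 on the log2 scale (limma adjusted p 8.33e-09). Its site, with a fold of -1.33, lies 11.8 kb upstream in an intron of Tada2a.

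The other large decreases given here are of genes with a mean of at least 100 normalised counts. Cavin2, a caveola protein listed as Sdpr in the RNA table, was at -1.07, the glutamate transporter Slc1a6 at -1.0 and the calcium sensor Ncald at -0.99. Lrrc75a was at -0.79, the retinaldehyde dehydrogenase Aldh1a1 at -0.67 and the growth factor Bmp4 at -0.66. In each the treated libraries were all below the DMSO libraries, for example Bmp4 with 675, 631 and 676 against 422, 415 and 416 normalised counts. The Slc1a6 site was 2.26 kb from the start with a fold of -1.61, whereas the Cavin2 and Bmp4 sites were 145 and 85.1 kb away. Lrp2, an endocytic receptor with a mean under 100 normalised counts, had sites with folds of -1.65 and -1.27, and its RNA fell by 1.90 on the log2 scale (limma adjusted p 1.98e-05). Others under that mean also fell further than Cavin2, among them Adcy1 at -1.50 and Galnt14 at -1.14 (limma adjusted p 6.57e-05 and 0.000166).

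Further decreases were chosen after their values were seen. Capn2 had 13316, 13074 and 13831 normalised counts in DMSO and 9521, 9718 and 9735 with Y27632, a log2 change of -0.47 (limma adjusted p 1.16e-07), and its site, 2.61 kb from the start in intron 1 of 20, had a fold of -1.29. Wwc2, a Hippo pathway scaffold of the Kibra family, had a site 12.5 kb upstream with a fold of -1.64, and its RNA changed by -0.32 (limma adjusted p 2.53e-05). Fbln5, an elastic fibre protein, changed by -0.24, and Bdnf, a neurotrophin with a site 1.85 kb from its start at a fold of -1.48, by -0.39 (limma adjusted p 3.07e-05 and 0.00312). Col6a6, a collagen VI chain with a site 14.0 kb upstream, fell by 1.08 on the log2 scale (limma adjusted p 0.000401), from 88.1 ± 15.2 to 41.0 ± 5.64 normalised counts (SD, n = 3).

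Some genes next to closed sites had higher RNA. Nfkbiz, an inhibitor of NF-kappa B that also activates some of its targets, had a site 44.1 kb from its start with a fold of -1.25 in the authors' deposited table. Its RNA had 775, 728 and 797 normalised counts in DMSO and 1427, 1273 and 1279 with Y27632, a log2 change of 0.79 (limma adjusted p 2.59e-07). Antxr1, a collagen-binding receptor, rose by 0.58 and Tbc1d2b by 0.54 on the log2 scale, with sites 50.2 and 263 kb from their starts. Eps8, an actin-capping protein with a site 4.87 kb from its start, rose by 0.37 (limma adjusted p 7.45e-05). The Eps8 groups did not overlap, with 2947, 2625 and 2888 normalised counts in DMSO and 3861, 3445 and 3653 with Y27632.

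**Figure D4:**
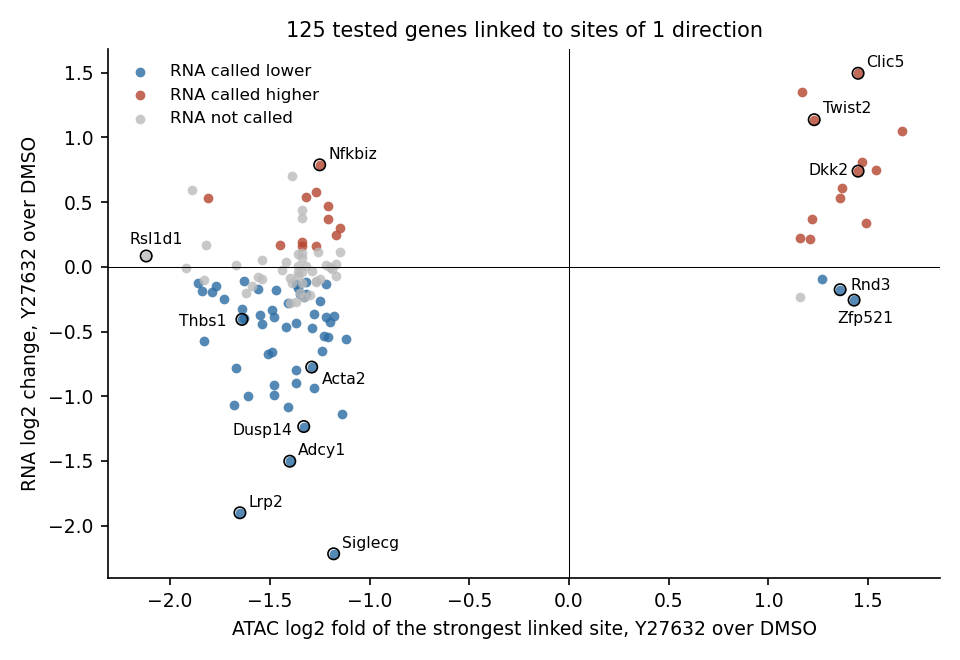
RNA log2 change (vertical axis) against the ATAC log2 fold of the gene's strongest listed site (horizontal axis), both Y27632 over DMSO, for the 125 tested genes with sites of 1 direction; colours give the limma call and black rings mark the labelled genes. Of the genes with lower sites 53 were called lower and 12 higher, and of those with higher sites 13 higher and 3 lower. The 13 include 4930431F12Rik, which passed the minimum only through its Y27632 libraries.

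Some markers of other cells moved with the treatment in the RNA libraries. All 6 macrophage and leukocyte markers were called higher with Y27632, and their summed level was 6186 to 6838 normalised counts in the DMSO libraries and 9005 to 10279 in the Y27632 libraries, with none at 0. Fibroblast markers summed to 1074120 to 1140770 in DMSO and 1111350 to 1161750 with Y27632, with 4 of 10 called higher and 1 lower, and 5 of 7 tendon markers were called higher. These 5 include Egr1, an immediate early factor, at 2.52, whereas Scx and Tnmd were not called (limma adjusted p 0.143 and 0.0684). Of all tested genes 18.1% were called higher and 17.8% lower. Of 5 endothelial markers 1 was called lower and 0 higher. The chondrocyte, the Schwann cell and the pericyte and smooth muscle sets, of 4 markers each, had 1 called higher and 0 lower. Keratinocyte markers summed to at most 87.0 and adipocyte markers to at most 6.19 normalised counts in any library. In such bulk samples a change in the number of cells of a type and a change in RNA per cell cannot be told apart. The part of these markers in the RNA results was not tested. The site table has no values by library in which such cells could be measured.

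Many of the sites were also listed under myosin inhibition. Of the 207 sites 149 overlapped a site of the blebbistatin ATAC table by at least 1 bp, 72% of the Y27632 table and 15.4% of the 970 blebbistatin sites, and the 2 comparisons share their DMSO libraries. By direction these were 143 of the 176 lower sites, 81.3%, and 6 of the 31 higher sites, 19.4%. The blebbistatin table itself holds 953 lower and 17 higher sites, so fewer opened sites could be found in it; the shared sites were 15.0% of its lower and 35.3% of its higher sites. The median fold of the 143 was -1.37 with Y27632 and -1.77 with blebbistatin in the authors' deposited tables, and 132 of them fell further with blebbistatin. The Mir710 site had folds of -2.05 with Y27632 and -2.38 with blebbistatin, the Col5a2 site -1.84 and -2.56, the widest Thbs1 site -1.39 and -2.10, the Ccn1 site -1.37 and -1.61 and the Acta2 site -1.29 and -1.63. The 6 shared sites that opened, near 4930431F12Rik, Dleu7, Sucnr1, Rtp1, Tbc1d1 and AI427809, had folds between 1.36 and 1.67 with Y27632.

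The doxycycline experiment has its own libraries. Its site lists are named as cut by fold as well as by FDR, unlike those of the ATAC comparisons above, so the shares of overlap rest on unlike limits. In its comparison of blebbistatin with neither drug, 91 of the 207 Y27632 sites were listed, 44.0%, or 7.39% of its 1231 sites. They were 90 of the 176 lower sites, all lower there, and 1 of the 31 higher sites, that of Sned1, higher there. In that table, 99.0% of all sites are lower, so a lower direction at a shared site says little. The Tagln promoter site, with no overlap in the blebbistatin ATAC table, had a fold of -1.29 in this one, and the Lats2 site one of -1.13. In the table of blebbistatin in the presence of doxycycline 56 of the Y27632 sites were listed, all lower in both, and 99.8% of all sites of that table are lower.

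Counting these 3 blebbistatin tables, 27 of the 176 lower sites were in all of them, 74 in 2, 60 in 1 and 15 in none, while 24 of the 31 higher sites were in none. These tables hold 17, 12 and 14 higher sites against 953, 1219 and 6332 lower ones, so the opened sites had few sites to overlap. The 15 closed sites in no blebbistatin table include those of Mir145a, Actb, Jmy, an actin nucleator that also binds p300, Hells, a chromatin remodeler, and Col6a6, named here after their values were seen. Whether their response differs between the inhibitors was not tested, since a site missing from a table may lie just outside its limits. The sites of Gas7, Ldb2, Dkk2, Twist2 and Rnd3 were among the 24 that opened and were in no blebbistatin table.

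Doxycycline without blebbistatin had the opposite direction at every shared site. Its table holds 63 of the 207 sites, 30.4%, matching 64 of its 7613 sites, 0.841%. Of these, 61 were lower with Y27632 and higher with doxycycline, and 2 were higher with Y27632 and lower with doxycycline. In that table, 4.15% of all sites are lower, and the 2 sites, near Sucnr1 and Zfp521, had folds of -1.0 and -1.02 there in the authors' deposited table against 1.58 and 1.43 with Y27632. Among the closed sites the Mir710 site had a fold of 1.10 with doxycycline, Col5a2 1.59, Ccn1 1.26, Acta2 1.05 and Capn2, a calpain with a site in its first intron, 1.18.

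**Figure D5:**
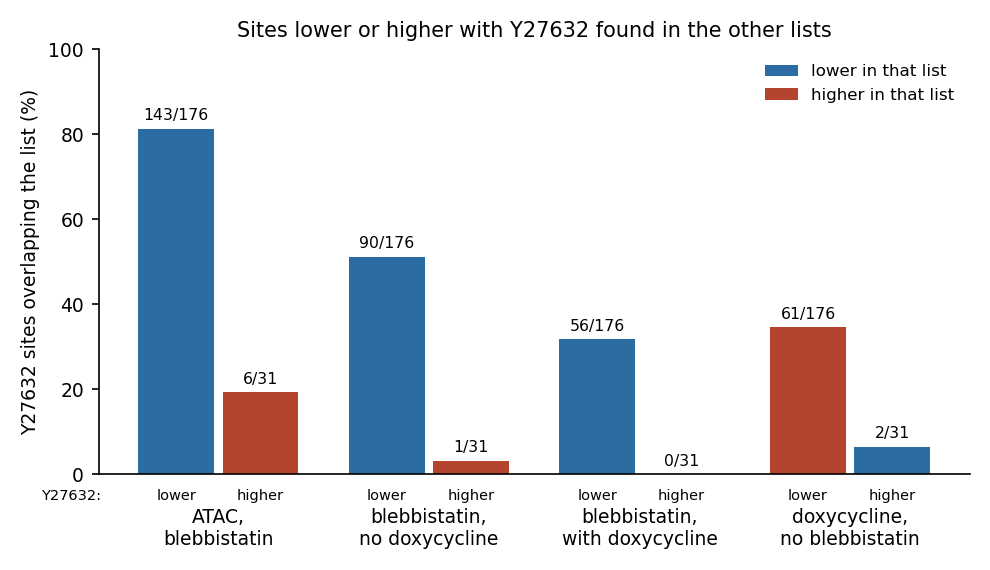
Share of the 176 lower and 31 higher Y27632 sites that overlap each of the other 4 tables by at least 1 bp (vertical axis, percent), with blue for sites lower and red for sites higher in that table and the counts above the bars. Lower sites overlap the 3 blebbistatin tables as lower sites and the doxycycline table as higher ones.

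The inhibitors were compared directly in RNA for the linked genes. edgeR called 53.1% of all genes between Y27632 and blebbistatin, 26.2% higher and 26.9% lower with Y27632. Of the 109 tested genes with only lower sites it called 66, 48 higher and 18 lower with Y27632, and of the 18 with only higher sites 14, 5 higher and 9 lower. Of the 5 YAP/TAZ targets next to closed sites 4 were among the 48: Thbs1 was higher with Y27632 by 1.89, Ccn1 by 1.87, Ccn2 by 1.47 and Lats2 by 0.52 on the log2 scale (edgeR adjusted p 1.19e-11, 1.69e-11, 3.72e-08 and 3.08e-08). The remaining one, Asap1, did not pass, at -0.01 (edgeR adjusted p 0.892). Among contractile genes Actb was higher with Y27632 by 0.30, Tpm4 by 0.29 and Acta2 by 0.18 (edgeR adjusted p 1.50e-06, 1.46e-05 and 0.0154). Actn4 was lower with Y27632, at -0.12 (edgeR adjusted p 0.00196). Siglecg did not pass either, at -0.07 (edgeR adjusted p 0.658), and neither did Cavin2, at -0.01 (edgeR adjusted p 0.892).

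With blebbistatin against DMSO, limma called 13 of 18 tested genes with only higher sites higher and 4 lower, with a median log2 change of 0.93. Of 109 with only lower sites it called 68 lower and 12 higher, with a median of -0.29. Over all tested genes 26.1% were higher and 26.9% lower with blebbistatin. Among genes next to opened sites, Dkk2 was higher with Y27632 than with blebbistatin by 1.57 and Rnd3 by 1.32 (edgeR adjusted p 2.02e-13 and 1.62e-11). Dkk2 had 6430 ± 120 normalised counts in DMSO and 10740 ± 330 with Y27632, and 3457 ± 59.1 in the separately scaled blebbistatin libraries (SD, n = 3). Gas7 was lower with Y27632 than with blebbistatin, at -0.17, and so was Sned1, at -0.53 (edgeR adjusted p 0.00282 and 2.57e-07), and Twist2 did not pass, at 0.17 (edgeR adjusted p 0.110).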

How the data were processed

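Per the submitters' processing notes the work used HISAT2, Bowtie2, Picard, SAMtools, featureCounts, MACS2, DiffBind, HOMER and DESeq2 and the build mm10; which step used which settings, and how reads of overlapping genes or of either strand were assigned, is not given in the sources used here. The site tables hold, per the file headers, a log2 mean per group, a log2 fold, a p-value, an FDR, the nearest gene and its distance, which the authors deposited with no value per library. The blebbistatin table also holds the GC fraction and, as a text column, the TEAD motif matches of each site, per the file headers; other scores, such as the peak score column the authors deposited, were not used. Rank, p-value and FDR together gave the number of sites tested. Coordinates are as in the tables. No genome was used here, so the planned motif counts were replaced by the authors' TEAD matches.

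The RNA signal, as the authors deposited it, is the read count divided by a size factor per library: 100% of the values came out as whole reads within a tolerance of 0.1. Genes with a mean of at least 10 normalised counts over the 6 libraries entered limma 3.58.1 (R 4.3.3, trend, log2(normalised count + 1)), without a replicate block, with Benjamini-Hochberg adjustment. The log2 changes given are on this scale, so those of low genes are too small. The inhibitors were compared on the reads of 9 libraries with the quasi-likelihood test of edgeR 4.0.16 after TMM scaling. edgeR and DESeq2 1.42.0 on recovered reads, pseudocounts of 0.5 and 5, no filter, a replicate block and leaving out each library were alternatives. Columns without a label numbered 0. All replicate pairs differed by more than sampling noise. On simulated data with 200 changed genes, limma recovered 91.5% at a log2 change of 1.

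Sites were chosen as all rows of the authors' table; overlaps needed at least 1 bp. Named are the 8 largest decreases and increases at an FDR under 0.01, the highest levels, the promoter site, sites of gene list members and genes with at least 3 sites; in RNA, the 10 highest and 10 lowest called linked genes with a mean of at least 100, linked list members, Rock1 and Rock2; 1 gene that the rule names is not reported here. Other names were chosen after their values were seen. The members and all lists were chosen with earlier results of these data known.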

Additional observations from a re-analysis of the deposited data

How the results depend on the processing

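The sites at an FDR of at most 0.01 were 67 lower and 11 higher. Of the genes linked to them, those with only lower sites had 22 lower and 3 higher calls in RNA and those with only higher sites 6 higher and 1 lower, since fewer genes were linked. With links of at most 100 kb, 8 genes with only higher sites were called higher. Every listed site had an absolute log2 fold of at least 1. An overlap of at least 50% of both sites left 147, 83, 55 and 50 sites in the other tables, and the Sned1 site and 1 of the 2 sites opposite to doxycycline were then no longer shared.

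RNA counts of called genes were 5328 with limma, 5354 with edgeR, 4265 with DESeq2 and 5001 with no filter, and 4304 to 4839 without 1 library; among genes with only lower sites 48 to 51 were then lower and 8 to 13 higher, and among those with only higher sites 11 to 12 were higher and 2 to 3 lower. The replicate numbers did not pair the libraries: deviations of same-numbered libraries had correlations of -0.095, -0.00095 and -0.019, and the fit with a replicate block called 4633 genes. Values near 0 changed sign without 1 library: Adamts6 ranged from -0.021 to 0.045, Asap1 from -0.0074 to 0.059 and Rock1 from -0.041 to 0.011. Sites have no value per library, so no such check was possible for them.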
